A study of Homo sapiens with 21 samples.

Results

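Perfluorodecane sulfonate (PFDS) is a long-chain perfluoroalkyl sulfonic acid, and its effect on RNA was read from 3 PFDS libraries against 3 control libraries, 6 of the 21 libraries in the series. All expressed genes entered the comparison: 24879 of the 62656 genes in the count table passed the filter on low counts. The cells were SH-SY5Y, a wild-type human neuroblastoma line that can be driven towards a neuron-like state, differentiated for 11 days. The PFDS group then received 30 µM PFDS for 24 h in a final solution with 1% methanol, and the control group received no PFAS (per- or polyfluoroalkyl substance). The methanol content of the control plates is not stated in the sources used here, so solvent and compound cannot be told apart from these labels. The other groups, with the same dose and time, were PFOA, PFOS, PFDA, 8:2 FTS and 8:2 FTOH, of which PFOS, PFDA and 8:2 FTS are compared with PFDS below. Ribosome-depleted total RNA was sequenced. Treatments were done in triplicate, but separate cultures are not stated for the 3 libraries of a group. The p-values compare the groups with the spread within groups, estimated over all 21 libraries of the 7 groups in 1 model. It is not the spread of the PFDS and control libraries alone, and it may be technical.

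PFDS shares its charged sulfonate head with PFOS and carries a longer fluorinated chain, which makes it more hydrophobic and a strong binder of proteins and membranes. Several programmes that answer to membranes and growth signals can be read in RNA. Immediate early genes such as EGR1 and FOS are switched on within minutes by the ERK pathway through serum response factor, which binds the CArG boxes of their promoters, and their RNA is short-lived. Genes of cholesterol synthesis are driven by the transcription factor SREBP2, which is held back when the endoplasmic reticulum membrane is rich in sterol. ATF4 raises amino acid transporters and amino acid synthesis enzymes when the integrated stress response is active.

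The libraries differed in depth in a way that touches every comparison. The controls held 22472000, 24905803 and 22179910 counts, and PFDS replicates 1, 2 and 3 held 11839106, 13313204 and 27134957. All libraries of the series lay between 7680024 and 30429746. PFDS had the widest spread of the 7 groups, with a median SD of 0.192 in log2 CPM (counts scaled to library size by TMM, the unit of all levels here) over 19628 genes with a mean of at least 1 CPM, against 0.148 in the controls and 0.129 to 0.167 in the other groups. Over all genes PFDS replicate 1 lay farthest from the other 2 of its group, at a median distance of 0.213 in log2 CPM, against 0.202 for replicate 3 and 0.17 for replicate 2. In the gene lists the outer libraries were on opposite sides: among the 18 compound libraries PFDS replicate 3 had the highest level in 17 of 35 lists and PFDS replicate 1 the lowest in 11. PFOA replicate 1, with 11245199 counts, was also the lowest in 11 lists. A list's level here is the mean of log2 CPM over its members minus the control mean. Control replicate 3 also stood apart, with 14951 CPM of the mitochondrial ribosomal RNA MT-RNR2 against 16.7 and 33.2 in the other controls and 165 to 640.3 with PFDS. It is also one of 2 libraries that the authors' normalized table leaves out. Results that rest on 1 of these libraries are given with and without it.

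The neuronal identity that the labels give was present in both groups. All 13 neuron markers were measured, with summed levels of 5483 to 5777 CPM in the controls and 4927 to 5687 CPM with PFDS, and all 10 noradrenergic markers summed to 3527 to 3930 CPM and 3696 to 4217 CPM. DBH, the enzyme that makes noradrenaline, stood at a mean of 1146 CPM in controls and 1269 CPM with PFDS. TH, the first enzyme of that path, was at 0.59 and 0.94 CPM. Schwann cell and glia markers summed to at most 15.3 CPM in controls and 17.4 CPM with PFDS, with OLIG1, OLIG2 and FOXD3 at 0 counts in all 6 libraries. Endothelial and blood markers summed to at most 2.9 and 2.88 CPM, with CD3E and HBB at 0, and epithelial and melanocyte markers to at most 12.6 and 12.2 CPM, with KRT5 at 0. Of the mesenchymal markers, 9 of 11 had log2 fold changes below 0 (49.5% of all genes tested did). At an unadjusted p under 0.05, 1 was lower (3.03% of all genes), and 0 passed in edgeR or DESeq2. The summed levels of these markers overlapped, at 504 to 552 CPM and 446 to 560 CPM, and PRRX1 was at 0.

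In this comparison 6 of 24879 genes passed an adjusted p of 0.05 (0.0241% of genes tested), 5 lower with PFDS (0.0201%) and 1 higher (0.00402%), by edgeR's quasi-likelihood test with Benjamini-Hochberg adjustment. EGR1, INHBA, FGF1, ARSJ and CDH20 fell and NTNG2 rose. The median log2 fold change over all genes was 0.002, and among genes with at least 1 CPM the median size of the change was 0.10. For 87.5% of those genes the whole 95% interval lay within a 2-fold change in either direction. At an unadjusted p of 0.05, 1389 genes (5.58%) passed, 636 higher (2.56%) and 753 lower (3.03%). DESeq2 called 28 genes, 13 higher and 15 lower (0.161% of the 17400 genes with an adjusted p), the 6 genes among them. Scaling by library size alone gave 13 calls (0.0523%), 5 higher and 8 lower. Leaving out 1 library moved the count from 1 call (without control replicate 2) through 3 (without control replicate 1) and 23 (without control replicate 3, 0.0897%) to 100 (without PFDS replicate 3, 0.39%), and all 6 genes were among those 100.

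**Figure D1:**
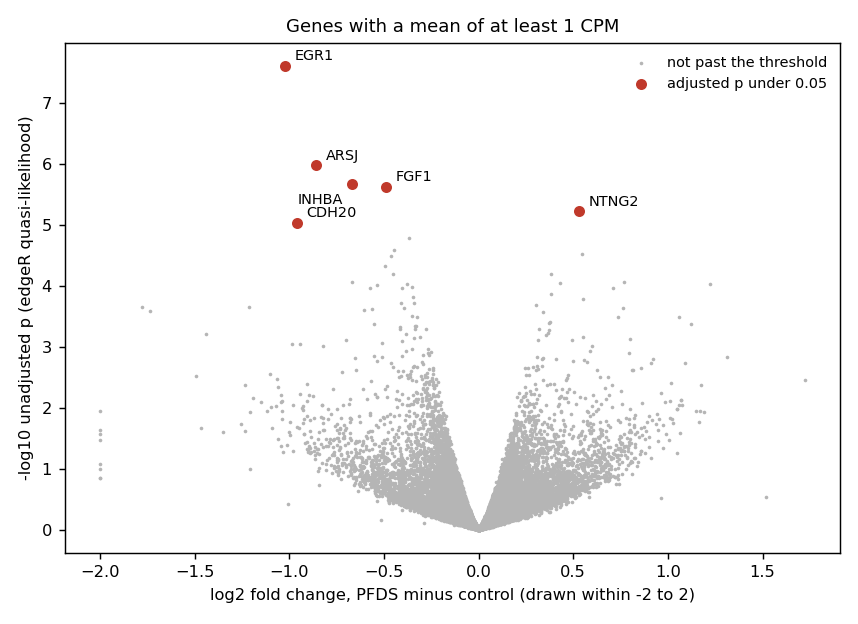
Log2 fold change of PFDS minus control (x axis) against −log10 of the unadjusted p (y axis) for 19628 genes with a mean of at least 1 CPM; each point is a gene, and values beyond −2 or 2 are drawn at the edge. The 6 red points are the genes past an adjusted p of 0.05, with EGR1 highest.

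EGR1 (ENSG00000120738, hg38 chromosome 5, 138465479 to 138469303, plus strand) encodes a zinc-finger transcription factor that is a first responder to growth factors and to neuronal activity. The 250 bases before its start are shown because they hold the elements through which growth signals are known to reach this gene; capitals mark 2 CArG boxes, which a search on both strands found at 105 to 96 and at 83 to 74 bases before the start. The sequence is from RefSeq, GRCh38.p14, chr5:138465229-138465478, plus strand.
EGR1: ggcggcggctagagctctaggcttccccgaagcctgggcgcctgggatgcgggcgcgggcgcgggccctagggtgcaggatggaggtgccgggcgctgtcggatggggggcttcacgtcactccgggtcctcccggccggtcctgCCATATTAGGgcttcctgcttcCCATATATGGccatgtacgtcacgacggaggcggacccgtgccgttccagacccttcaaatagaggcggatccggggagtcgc
Of 35116 RefSeq promoters searched over the same 250 bases, 407 hold a CArG box (1.16%). Of the 20 matched immediate early genes 3 do in any of their promoter entries: EGR1 and SRF with 2 each and EGR2 with 1. The share of 1.16% is per entry and not per gene. SRF, the factor that binds the box, differed by −0.12 on the log2 scale (SE 0.10) and EGR2 by 0.05 (SE 0.42), and neither passed the test (adjusted p of 0.971 and 0.996). The entries for INHBA, FGF1, ARSJ, CDH20 and FOS hold no CArG box in this window. Bases farther from the start were not searched, so a box there would be missed, for FOS as for the others. A match describes letters and is not evidence of binding.

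EGR1 measured 45.7, 33.01 and 28.7 CPM in control replicates 1, 2 and 3 and 16.3, 17.1 and 19.3 CPM in PFDS replicates 1, 2 and 3. The groups did not overlap, and the PFDS libraries lay closer together than the controls, replicate 3 being the highest of them. EGR1 fell by 1.02 on the log2 scale (SE 0.15, 95% interval −1.32 to −0.72, adjusted p = 6.13e-04), from a mean of 35.8 ± 8.82 CPM (SD, n = 3) to 17.5 ± 1.53 CPM. It passed in each of the 18 other settings tried, with log2 fold changes from −1.24 to −0.80.

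The other immediate early genes did not follow EGR1 past the threshold. Of 26 tested members, 1 was called, 16 had log2 fold changes below 0 (49.5% of all genes did), and the median was −0.11 against 0.002 over all genes. At an unadjusted p under 0.05, 6 were lower (3.03% of all genes) and 1 was higher (2.56%). The list's level was −0.34, −0.12 and 0.009 in PFDS replicates 1, 2 and 3, and −0.02, 0.002 and 0.02 in the controls, so replicate 3 lay within the control range. FOS, which pairs with JUN proteins in the AP-1 factor, measured 8.57, 7.08 and 6.85 CPM in controls and 4.22, 5.69 and 3.42 CPM with PFDS. Every PFDS library was below every control, by −0.77 on the log2 scale (SE 0.26, adjusted p = 0.579). NR4A1, an orphan nuclear receptor induced by activity, went the other way, at 11.3, 12.1 and 8.42 CPM in controls and 13.3, 14.6 and 15.01 CPM with PFDS (0.43, SE 0.15, adjusted p = 0.609). PLK2, a kinase of synapse remodelling, was at 45.04, 48.6 and 40.97 CPM and at 25.5, 31.7 and 42.3 CPM (−0.42, adjusted p = 0.23). Only PFDS replicate 3 reached the control range, and PLK2 passed the test when that library was left out.

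ERK feedback genes, which ERK induces and which then damp it, had a median of −0.12 over 18 tested members. Of these, 12 were below 0 (49.5% of all genes were) and 0 were called by edgeR or DESeq2. At an unadjusted p under 0.05, 3 were lower (3.03% of all genes) and 1 was higher (2.56%). SPRY2, a receptor tyrosine kinase inhibitor, measured 55.9, 61.3 and 51.6 CPM in controls and 37.9, 42 and 52.5 CPM with PFDS (−0.34, SE 0.09, adjusted p = 0.276). SPRY1 measured 38.8, 27.3 and 28.6 CPM and 13.8, 20.9 and 31.7 CPM (−0.48, adjusted p = 0.822). For both genes PFDS replicates 1 and 2 were below every control and replicate 3 was within the control range. Without PFDS replicate 3 both passed the test. DUSP4, a nuclear ERK phosphatase, had a log2 fold change of 0.17 and DUSP6, its cytoplasmic counterpart, of −0.14, neither past the threshold.

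Among secreted signals, 2 genes fell. INHBA (ENSG00000122641, chromosome 7, 41667168 to 41705834, minus strand) encodes the subunit whose dimer is activin A, a TGF-beta family ligand. It measured 55.9, 60.3 and 58.2 CPM in controls and 28.96, 32.02 and 47.3 CPM with PFDS. All PFDS libraries were below all controls, replicate 3 being the nearest to them. INHBA fell by 0.67 on the log2 scale (SE 0.12, 95% interval −0.91 to −0.43, adjusted p = 0.0147). It no longer passed without control replicate 1 or 2 (adjusted p = 0.0668 and 0.128) or without PFDS replicate 1 or 2 (0.119 and 0.122).

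The receptors and partners of activin did not pass the test. Of 39 tested genes of the activin, BMP and TGF-beta pathway, INHBA alone was called and the median was 0.04. The activin receptor ACVR1B measured 84.0, 82.7 and 88.4 CPM in controls and 99.98, 89.2 and 96.7 CPM with PFDS, without overlap (0.16, SE 0.08, adjusted p = 0.892), and ACVR2B had a log2 fold change of 0.14 (adjusted p = 0.919). TGFB1, the founding ligand, went from 2.0 to 3.4 CPM on average (0.76, SE 0.28, adjusted p = 0.629) and shares exon bases with HNRNPUL1 on the other strand, which the counting could not tell apart. BAMBI, a decoy receptor, was at 12.9, 11.9 and 12.99 CPM in controls and 5.49, 9.91 and 11.7 CPM with PFDS (−0.45, adjusted p = 0.738).

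FGF1 (ENSG00000113578, chromosome 5, 142592178 to 142698070, minus strand) encodes a fibroblast growth factor that binds all FGF receptors and supports neurons. It measured 60.3, 55.0 and 57.3 CPM in controls and 36.9, 39.5 and 45.97 CPM with PFDS. The groups did not overlap, and PFDS replicate 3 was the nearest to the controls. FGF1 fell by 0.49 (SE 0.09, 95% interval −0.67 to −0.31, adjusted p = 0.0147), and the call was lost without any 1 of control replicates 1 and 2 and PFDS replicates 1 and 2 (adjusted p = 0.0692 to 0.142). Its span overlaps that of SPRY4-AS1 on the other strand without shared exon bases. Of 16 tested FGF ligands, receptors and cofactors it was the only one called. FGF14, an intracellular family member that binds sodium channels, was at 106 and 107 CPM on average, and the median of the list was −0.001.

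Among adhesion and matrix genes, CDH20 and ARSJ fell. CDH20 (ENSG00000101542, chromosome 18, 61333430 to 61555779, plus strand) is a type II classical cadherin. It measured 9.86, 11.5 and 7.76 CPM in controls and 5.24, 4.51 and 5.21 CPM with PFDS. The PFDS libraries were tight and below every control, with a fall of 0.96 (SE 0.19, 95% interval −1.34 to −0.57, adjusted p = 0.0383). Without any 1 of control replicates 1 and 2 and PFDS replicates 1 and 2 CDH20 missed the threshold (adjusted p = 0.119 to 0.432). CDH11, another type II cadherin, stood at 238, 208 and 198 CPM in controls and 145, 162 and 195 CPM with PFDS, without overlap (−0.35, SE 0.08, adjusted p = 0.12). It passed without control replicate 3 and without PFDS replicate 3. FAT1, a giant protocadherin, had 326, 406 and 506 CPM in controls and 623, 515 and 587 CPM with PFDS (0.48, SE 0.15, adjusted p = 0.58). Of 27 tested cadherins CDH20 was called, 12 were below 0 (49.5% of all genes were) and the median was 0.04.

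ARSJ (ENSG00000180801, chromosome 4, 113900284 to 113979727, minus strand) encodes a member of the arylsulfatase family with a poorly known substrate. It measured 18.7, 19.1 and 14.99 CPM in controls and 7.68, 10.6 and 10.6 CPM with PFDS. No PFDS library reached the lowest control. ARSJ fell by 0.86 (SE 0.15, 95% interval −1.16 to −0.55, adjusted p = 0.013), and missed the threshold without control replicate 1 or 2 or PFDS replicate 1 (0.092 to 0.128). The span of ENSG00000249304 overlaps it on the other strand, with no shared exon bases. SULF2, which removes sulfate groups from heparan sulfate, was at 82.7, 92.4 and 81.5 CPM in controls and 129, 95.4 and 95.6 CPM with PFDS (0.32, adjusted p = 0.609), and shares exon bases with NCOA3. ARSJ was the only one called of 24 tested sulfatases and heparan sulfate enzymes, whose median was 0.04.

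LAMA4, a laminin chain of vessel and nerve basement membranes, was among the genes nearest to the threshold. It measured 52.9, 49.0 and 52.7 CPM in controls and 33.8, 35.5 and 43.5 CPM with PFDS, without overlap (−0.44, SE 0.09, adjusted p = 0.0797). ADAMTS9, a secreted protease of versican, had a log2 fold change of −0.37 and the seventh smallest p, and shares exon bases with its antisense gene ADAMTS9-AS1. Among 45 tested matrix and integrin genes 0 were called by edgeR, and DESeq2 called LAMA4 alone. Of the 7 with an unadjusted p under 0.05 (5.58% of all genes), 2 were higher (2.56%) and 5 lower (3.03%).

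NTNG2 (ENSG00000196358, chromosome 9, 132162058 to 132244526, plus strand) was the gene that rose. It encodes netrin-G2, a membrane-anchored netrin that organises synapses through its partner LRRC4. It measured 38.5, 31.8 and 33.3 CPM in controls and 47.1, 49.8 and 52.4 CPM with PFDS. Every PFDS library was above every control. NTNG2 rose by 0.53 (SE 0.10, 95% interval 0.32 to 0.74, adjusted p = 0.03), but missed the threshold at an adjusted p of 0.416 without control replicate 2, 0.0728 without control replicate 3 and 0.0888 without PFDS replicate 2.

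No other axon guidance gene passed the test. Of 52 tested, 32 had log2 fold changes above 0 (50.5% of all genes did). In 6, all PFDS libraries had higher values than all controls (3.72% of all genes tested did). SLIT1, a repellent ligand, was at 159, 181 and 175 CPM in controls and 188, 193 and 216 CPM with PFDS (0.22, adjusted p = 0.609). ROBO2, a receptor of SLIT proteins, was at 30.8, 31.96 and 31.3 CPM and at 34.96, 36.5 and 37.6 CPM (0.22, adjusted p = 0.804). The median of the list was 0.07.

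**Figure D2:**
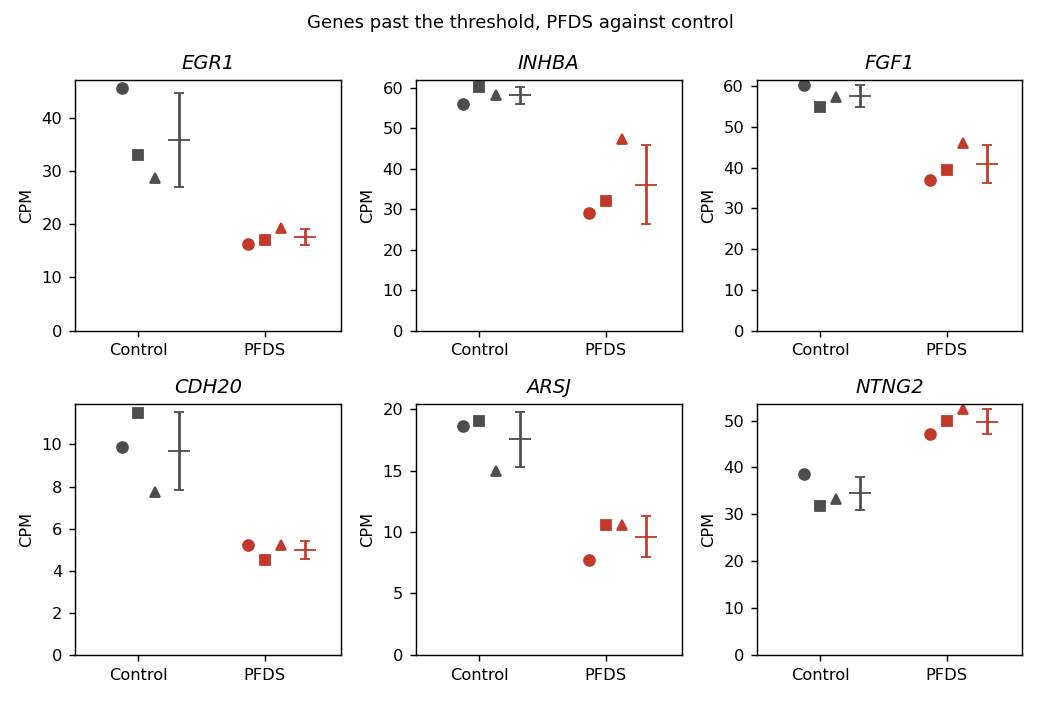
CPM (y axis, from 0) of the 6 genes past the threshold in the 3 control and 3 PFDS libraries; circle, square and triangle are replicates 1, 2 and 3, and the bar beside them is the mean with its SD. The groups do not overlap in any panel, and INHBA and FGF1 have PFDS replicate 3 nearest to the controls.

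The cholesterol genes divided the PFDS libraries: replicates 1 and 2 were low in most of them and replicate 3 was near control. Of 24 tested members 0 passed the test over all 6 libraries, while 23 had log2 fold changes below 0 (49.5% of all genes did), 16 had an unadjusted p under 0.05 in the lower direction (3.03% of all genes) and 8 lay below every control in every PFDS library (4.53% of all genes). The median was −0.28, against 0.002 over all genes. DESeq2 called ACAT2 alone. The level of the list was −0.55, −0.25 and −0.05 in PFDS replicates 1, 2 and 3, against 0.04, 0.02 and −0.06 in the controls. Of the 24 members, 23 in PFDS replicate 1 were below every control (30.6% of all genes tested were), 18 in replicate 2 (28.2% of all genes) and 8 in replicate 3 (27.2% of all genes), the last being near the share over all genes. Depth moved with these levels, since replicates 1 and 2 are the shallow ones. With every library thinned to the total of PFDS replicate 1 the median was −0.27, and with a term for libraries above or below 20000000 counts it was −0.24. Without PFDS replicate 1 it was −0.16.

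HMGCS1, which makes HMG-CoA, measured 728, 733 and 747 CPM in controls and 358, 547 and 672 CPM with PFDS (−0.48, SE 0.15, adjusted p = 0.552). The controls lay close together and all PFDS libraries were below them, replicate 1 farthest and replicate 3 nearest.

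The later steps showed the same layout of libraries. SQLE, which epoxidises squalene, measured 231, 249.9 and 236 CPM in controls and 184, 187 and 220.2 CPM with PFDS (−0.28, adjusted p = 0.23). NSDHL, a demethylating enzyme of the lanosterol branch, was at 46.5, 44.5 and 40.6 CPM and at 27.4, 34.6 and 35.98 CPM (−0.42, SE 0.11, adjusted p = 0.229). IDI1, which isomerises the isoprene unit, was at 105, 105 and 106 CPM and at 73.5, 86.7 and 89.8 CPM (−0.33, SE 0.09, adjusted p = 0.227). In these 3 genes no PFDS library reached the lowest control.

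ACAT2, the thiolase at the head of the path, was at 107, 111 and 89.8 CPM in controls and 61.6, 67.5 and 94.8 CPM with PFDS (−0.45, SE 0.10, adjusted p = 0.12); it shares exon bases with TCP1 and SOD2 on the other strand. INSIG1, which retains the SREBP complex in the endoplasmic reticulum and is itself an SREBP target, was at 152, 165 and 166 CPM and at 104, 132 and 155 CPM (−0.30, adjusted p = 0.417). SREBF2, which encodes SREBP2 itself, was at 263, 259 and 267 CPM and at 212, 259.8 and 310 CPM, a mean difference of −0.01 (SE 0.09, adjusted p = 0.996). The groups overlapped for ACAT2, INSIG1 and SREBF2.

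Leaving out PFDS replicate 3 changed the picture for this list. With PFDS replicates 1 and 2 alone, 12 of the 24 members were called lower (0.32% of the 25663 genes tested were called lower), among them ACAT2, HMGCS1, MSMO1, INSIG1, SQLE, FDFT1, DHCR7, SC5D, STARD4 and IDI1. The median was then −0.39. Without control replicate 3, by contrast, ACAT2 was the 1 member called and the median was −0.31. In the 15 libraries of the other 5 compounds, which are set against the same controls, the list's level ran from −0.33 to −0.10, from −0.31 to −0.15 in the 6 above 20000000 counts and from −0.33 to −0.10 in the 9 below. PFDS replicate 1 lay below that range, replicate 2 within it and replicate 3 above it. The letters TCACNCCAC, a core of the sterol regulatory element, were searched on both strands over the 250 bases before the start. They were found in 1 of 18 matched genes of the list, SREBF2, counting any promoter entry of a gene. Of all single promoter entries 0.883% held them, a share per entry and not per gene.

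**Figure D3:**
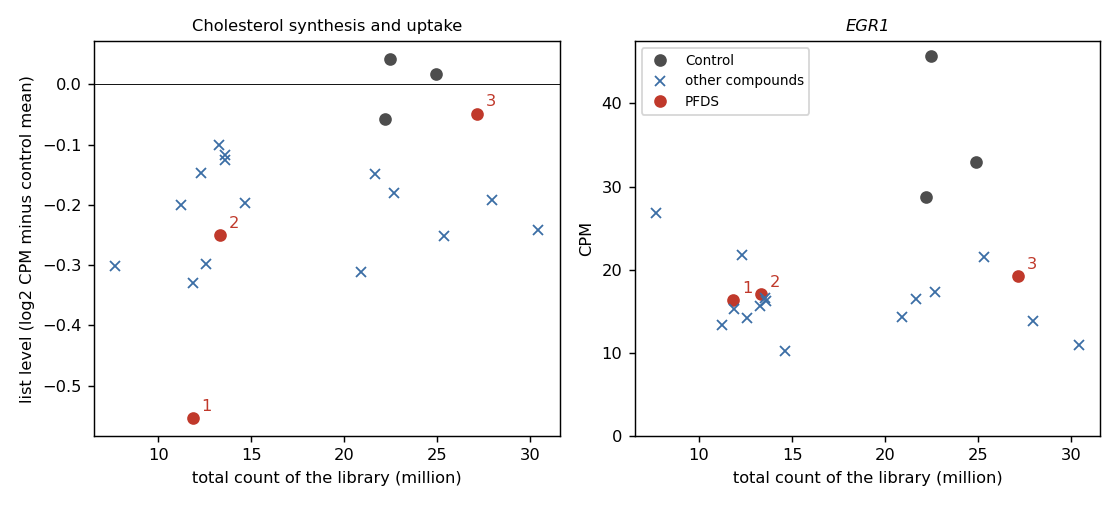
Level of the cholesterol list (left) and EGR1 CPM (right, from 0) on the y axes against the total count of each of the 21 libraries (x axis); numbers mark PFDS replicates. PFDS replicates 1 to 3 spread from −0.55 to −0.05 on the left, while on the right all 3 sit between 16.3 and 19.3 CPM, below the controls at 28.7 to 45.7 CPM.

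The medians of the other lipid lists were small. The median was −0.02 for fatty acid synthesis and desaturation (27 tested) and −0.01 for PPAR targets and fatty acid oxidation (33). It was 0.03 for sphingolipid metabolism (38) and −0.002 for phospholipid and triacylglycerol synthesis (40). In each, 0 members were called, and 4, 0, 1 and 2 had an unadjusted p under 0.05 (5.58% of all genes did). DESeq2 called 0 members of these 4 lists too. The 4 fatty acid genes were all lower. The median of that list covers members on both sides. In PFDS replicate 1, 15 of 27 were below every control (30.6% of all genes were). In replicate 3, 16 of 27 were above every control (24.8% of all genes were). Its summed level was 5553 to 5694 CPM in controls and 4408 to 6090 CPM with PFDS, and its median was 0.08 without PFDS replicate 1 and −0.09 without PFDS replicate 3. ACSS2, which makes acetyl-CoA from acetate and is driven by SREBP, was at 69.9, 65.8 and 67.5 CPM in controls and 35.6, 55.8 and 60.8 CPM with PFDS (−0.41, SE 0.13, adjusted p = 0.609). Its PFDS libraries lay below every control, replicate 1 farthest.

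No gene of the ATF4 and integrated stress response list passed edgeR's test. The list's level was 0.17, 0.14 and 0.25 in PFDS replicates 1, 2 and 3 and −0.17, 0.04 and 0.13 in the controls, without overlap. Of 33 tested members 28 had log2 fold changes above 0 (50.5% of all genes did), 10 had an unadjusted p under 0.05 in that direction (2.56%) and 9 were above every control in every PFDS library (3.72%). The median was 0.15. DESeq2 called SLC7A11. Without control replicate 3, the control with the highest level, SLC7A11 and STC2 passed and the median was 0.22. Without control replicate 1, the lowest, 0 passed, 5 members rather than 10 had an unadjusted p under 0.05 in the higher direction, 25 were above 0 and the median was 0.10.

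SLC7A11, the cystine importer, measured 4.31, 6.66 and 7.9 CPM in controls and 10.6, 9.76 and 10.4 CPM with PFDS (0.71, SE 0.17, adjusted p = 0.12). SLC7A5, the carrier of large neutral amino acids such as leucine, was at 89.4, 88.6 and 98.9 CPM and at 120.0, 110 and 131 CPM (0.38, SE 0.09, adjusted p = 0.141). STC2, a secreted glycoprotein, was at 8.44, 14.3 and 17.2 CPM and at 22.04, 17.8 and 20.3 CPM (0.59, SE 0.17, adjusted p = 0.368). In all 3 genes the groups were apart, although for STC2 the highest control lay close to the lowest PFDS library.

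Of 3 further members, SHMT2 and PHGDH were chosen after their values were seen. SHMT2, which splits serine in mitochondria, was at 48.0, 59.3 and 56.3 CPM in controls and 63.8, 63.7 and 73.3 CPM with PFDS (0.30, SE 0.10, adjusted p = 0.534). PHGDH, the first enzyme of serine synthesis, was at 99.0, 116 and 121 CPM and at 126, 124 and 147 CPM (0.24, adjusted p = 0.629). ALDH1L2, the mitochondrial folate dehydrogenase, was at 44.1, 48.7 and 51.9 CPM and at 79.5, 52.1 and 56.2 CPM (0.37, adjusted p = 0.23), and shares exon bases with NOPCHAP1. In all 3 the lowest PFDS library was above the highest control. For ALDH1L2 these were 52.1 and 51.9 CPM, close together, while PFDS replicate 1 stood apart at 79.5 CPM. With replicate 1 kept and PFDS replicate 3 left out, ALDH1L2 passed edgeR's test (0.45, adjusted p = 0.0328). ATF4 itself, whose output is set mainly by translation, was at 137, 165 and 157 CPM in controls and 157, 147 and 153 CPM with PFDS, and the groups overlapped (−0.01, SE 0.08, adjusted p = 0.996). The letters TGATGNAAT, a core of the element that ATF4 binds with C/EBP partners, were found in 1 of 28 matched genes, GARS1, counting any promoter entry. Of all single promoter entries 0.888% held them, a share per entry and not per gene.

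**Figure D4:**
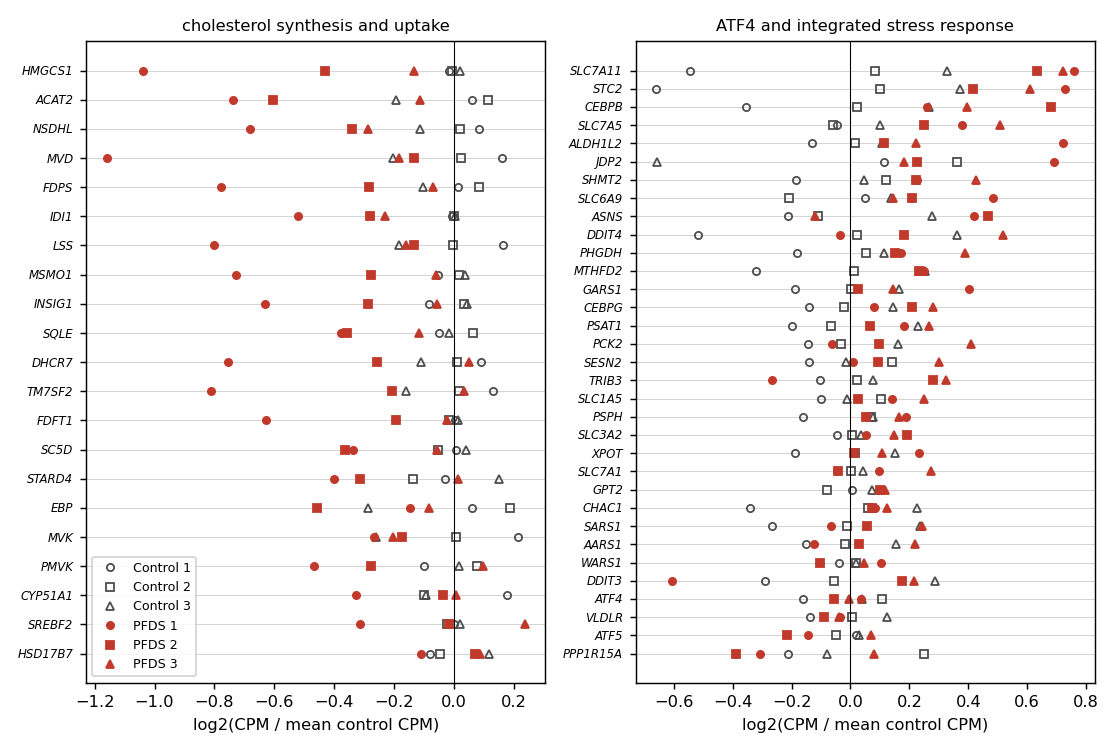
Members of the cholesterol list (left, 21 of 24 genes) and of the ATF4 list (right, 33 genes), one per row, with log2 of CPM over the mean control CPM on the x axis; open grey marks are controls, filled red marks PFDS, and circle, square and triangle are replicates 1, 2 and 3. On the left the red triangles of replicate 3 sit nearest to the controls, whose list level of −0.05 compares with −0.55 for replicate 1; on the right the PFDS marks lie mostly to the right in all 3 replicates.

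Of 30 tested hypoxia and glycolysis genes 26 had log2 fold changes above 0 (50.5% of all genes did), 7 had an unadjusted p under 0.05 in the higher direction (2.56%), 3 were above every control in every PFDS library (3.72%), and the median was 0.08 with 0 called. The list's levels overlapped, at −0.15, 0.05 and 0.10 in the controls and 0.09, 0.10 and 0.25 with PFDS. SLC2A1, the glucose transporter GLUT1, was at 48.9, 61.8 and 62.8 CPM in controls and 68.7, 73.9 and 80.3 CPM with PFDS (0.36, SE 0.10, adjusted p = 0.256). VEGFA, the vascular growth factor, was at 93.4, 109 and 111 CPM and at 119, 138 and 116 CPM (0.25, adjusted p = 0.499). Both were higher in each PFDS library. PDK1 and BNIP3 passed without control replicate 3, with a median of 0.13, and 0 members were called by DESeq2. Without control replicate 1, 20 members were above 0, 3 had an unadjusted p under 0.05 and the median was 0.05; without PFDS replicate 3, 19 were above 0 and the median was 0.03. The letters ACGTG, the core bound by hypoxia-inducible factors, were in any promoter entry of 17 of 27 matched genes. They were in 18.5% of all single promoter entries. A gene can have several entries, so these shares are not like for like.

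Of 32 tested members of the neuronal cytoskeleton list, which holds structural genes of neurites, 28 had log2 fold changes below 0 (49.5% of all genes did), 10 had an unadjusted p under 0.05 in that direction (3.03%), and 0 were called by edgeR; the median was −0.09. The level was −0.25, −0.20 and 0.04 in PFDS replicates 1, 2 and 3 and 0.02, −0.001 and −0.01 in the controls, so replicate 3 was on the other side of the controls. GAP43, the growth cone protein, was at 304, 302 and 293 CPM in controls and 199.9, 219 and 273 CPM with PFDS (−0.38, SE 0.09, adjusted p = 0.12). NEFM, a neurofilament subunit, was at 176, 182 and 199 CPM and at 122, 113 and 141 CPM (−0.56, SE 0.13, adjusted p = 0.17), and shares exon bases with ENSG00000272163. DPYSL3, a collapsin response mediator, was at 819, 836 and 797 CPM and at 575, 625 and 779 CPM (−0.31, adjusted p = 0.273). All 3 were below the controls in each PFDS library, with replicate 3 nearest. DESeq2 called NEFM.

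MAP1B, a microtubule protein of growing axons, was at 5524, 5334 and 5355 CPM in controls and 3929, 4054 and 5432 CPM with PFDS (−0.27, adjusted p = 0.576). Without PFDS replicate 3, GAP43, TUBB2B, DPYSL3, MAP1B, TUBB2A and NEFL were called lower and the median was −0.21. The neuron marker list shares such genes and showed the same layout, with levels of −0.21, −0.16 and 0.004 with PFDS.

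Of 27 tested catecholamine and cholinergic genes 0 were called by edgeR or DESeq2. Above 0 were 17 (50.5% of all genes) and below 0 were 10 (49.5%). At an unadjusted p under 0.05, 1 was higher (2.56% of all genes) and 2 were lower (3.03%). The median was 0.02 with overlapping levels. MAOB, which degrades dopamine, was at 39.2, 35.7 and 35.2 CPM in controls and 21.5, 21.7 and 31.6 CPM with PFDS, without overlap (−0.54, SE 0.13, adjusted p = 0.12). MAOA, its partner enzyme, was at 104, 110 and 122 CPM and at 72.2, 89.2 and 110.0 CPM (−0.30, adjusted p = 0.518). Both passed without PFDS replicate 3. CHGA, the granin of dense-core vesicles, is not one of these 27 genes but belongs to the synaptic vesicle and exocytosis list. It was at 238, 286 and 239 CPM in controls and 412, 305 and 312 CPM with PFDS. Each PFDS library was above each control (0.43, SE 0.10, adjusted p = 0.12), and DESeq2 called CHGA.

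Neuropeptides were the only list besides ATF4 whose levels did not overlap between the groups, at −0.39, −0.18 and −0.13 with PFDS and −0.09, −0.01 and 0.10 in the controls. Of 18 tested members 0 were called by either tool. At an unadjusted p under 0.05 there were 3, all lower (3.03% of all genes were lower at that p). The median was −0.09. It was −0.03 without control replicate 3, 0.004 without PFDS replicate 1, and −0.01 over the 14 members left by a stricter count filter, 7 of them below 0. NPY measured 135, 159 and 148 CPM in controls and 75.7, 106 and 133 CPM with PFDS (−0.48, SE 0.17, adjusted p = 0.737). VIP measured 39.8, 43.9 and 47.01 CPM and 22.1, 36.8 and 37.3 CPM (−0.43, SE 0.13, adjusted p = 0.463). Both lay below the controls in each PFDS library, by little for NPY in replicate 3.

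Proteasome subunits had a median of −0.12, with 28 of 33 members below 0 (49.5% of all genes were). At an unadjusted p under 0.05, 6 were lower (3.03% of all genes), and 0 were called by edgeR or DESeq2. The share over all genes is not given for the settings that follow. The 6 became 1 without control replicate 2 or with only the 2 groups fitted, 3 without PFDS replicate 1 or 2 and 15 without PFDS replicate 3; the medians without control replicate 2 and without PFDS replicate 3 were −0.08 and −0.18. POMP, which assembles the proteasome, was at 76.0, 80.1 and 70.3 CPM in controls and 54.3, 55.6 and 68.1 CPM with PFDS (−0.34, SE 0.08, adjusted p = 0.167). PFDS replicate 3 was just below the lowest control. Cytosolic ribosomal proteins (49 tested, median −0.07) and nuclear-encoded respiratory chain subunits (51 tested, median −0.08) were low in PFDS replicate 1, at levels of −0.28 and −0.29, and in control replicate 1, at −0.18 and −0.10. Both medians followed single libraries. For the ribosomal proteins the median was −0.15 without control replicate 1, −0.01 without control replicate 2, −0.02 without control replicate 3, 0.02 without PFDS replicate 1 and −0.15 without PFDS replicate 3. For the respiratory chain it was −0.14 without control replicate 1, −0.05 without control replicate 2, −0.004 without PFDS replicate 1 and −0.18 without PFDS replicate 3. The 13 mitochondrially encoded proteins were the reverse in PFDS replicate 1, at a level of 0.28 against −0.29 and −0.17 in replicates 2 and 3. None of these 13 had an unadjusted p under 0.05. The share of counts from mitochondrial genes was 5.24%, 3.93% and 4.12% in PFDS replicates 1, 2 and 3 and 4.13%, 4.37% and 6.33% in the controls. This share includes mitochondrial ribosomal RNA, and control replicate 3 held 14951 CPM of MT-RNR2 against 16.7 and 33.2 in the other controls.

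**Figure D5:**
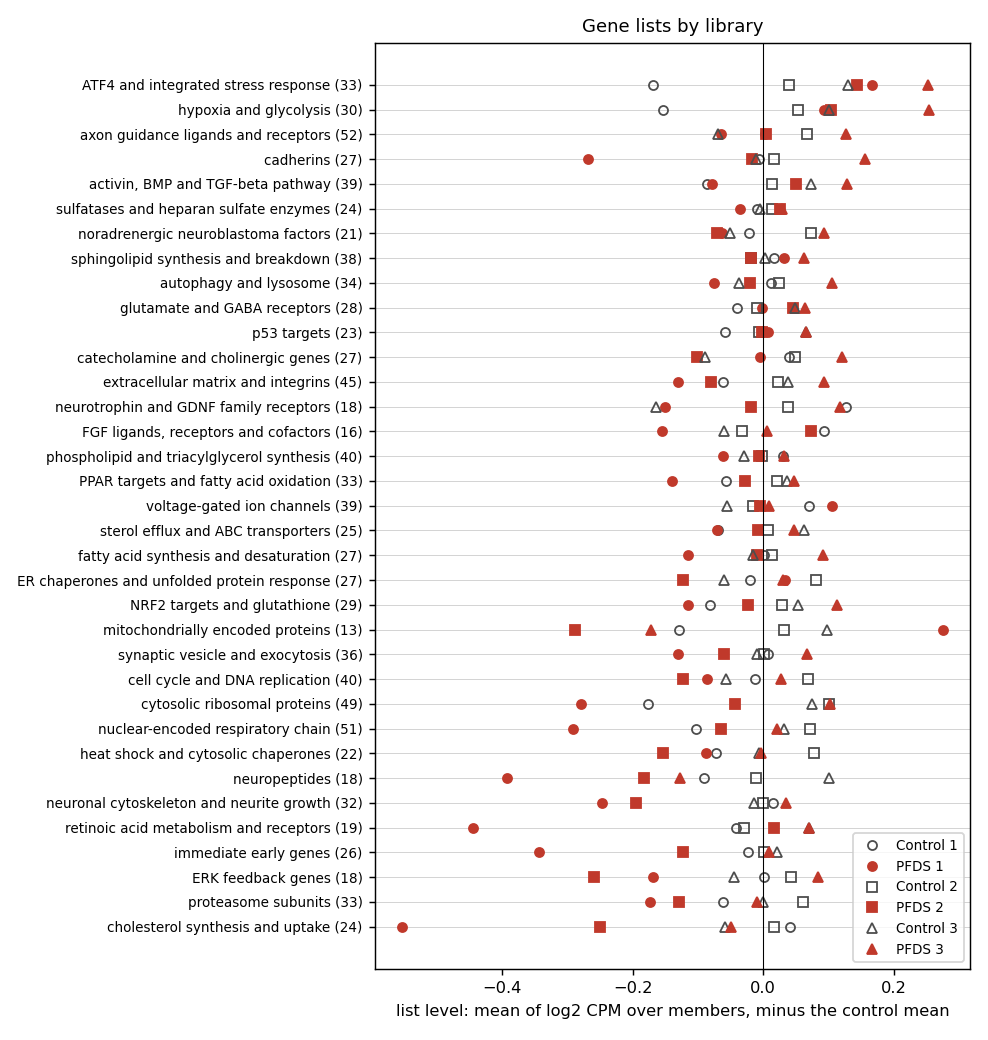
Level of each of 35 gene lists (rows, with the number of members tested) in the 3 control (open grey) and 3 PFDS (filled red) libraries; the x axis is the mean of log2 CPM over members minus the control mean, and rows run from the lowest median at the bottom to the highest at the top. The cholesterol list is lowest, with PFDS at −0.55, −0.25 and −0.05, and the ATF4 list highest, with PFDS at 0.17, 0.14 and 0.25.

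PFDS was then set against the compounds nearest to it in structure, 3 pairs in all at the same dose and time. Against PFOS, the sulfonate with a shorter chain, 1 of 24879 genes passed (0.00402%), and 1087 (4.37%) had an unadjusted p under 0.05. That gene was FOS (ENSG00000170345, chromosome 14, 75278826 to 75282230, plus strand), at 4.22, 5.69 and 3.42 CPM with PFDS and 1.0, 1.2 and 1.92 CPM with PFOS. The groups did not overlap, and FOS was higher with PFDS by 1.72 on the log2 scale (SE 0.30, 95% interval 1.11 to 2.33, adjusted p = 0.0253). DESeq2 also called 1 gene. Leaving out PFDS replicate 1 or 2, or PFOS replicate 1 or 2, ended the FOS call. Set beside 8:2 FTS, FOS had a difference of 1.52 (SE 0.31, adjusted p = 0.249), and beside PFDA of 0.65 (SE 0.27, adjusted p = 0.89).

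Against PFDA, which has a carboxylate in place of the sulfonate, and against 8:2 FTS, a sulfonate whose chain is fluorinated only in part, 0 genes passed by edgeR or DESeq2, with 1390 (5.59%) and 1020 (4.1%) at an unadjusted p under 0.05. None of the differences that follow passed the adjustment over all genes, and their 95% intervals, in parentheses, are not adjusted. INHBA differed by −0.50 from PFOS (−0.74 to −0.26, adjusted p = 0.45), by −0.25 from PFDA (−0.49 to −0.01) and by −0.24 from 8:2 FTS (−0.48 to 0.005). FGF1 differed by −0.38 from PFOS (−0.56 to −0.20, adjusted p = 0.45), by −0.23 from PFDA (−0.41 to −0.04) and by −0.15 from 8:2 FTS (−0.33 to 0.04). CDH20 differed by −0.65 from PFOS (−1.04 to −0.25), by −0.27 from PFDA (−0.67 to 0.12) and by −0.55 from 8:2 FTS (−0.95 to −0.15). ARSJ differed by −0.54 from PFOS (−0.85 to −0.22), by −0.37 from PFDA (−0.68 to −0.06) and by −0.31 from 8:2 FTS (−0.63 to 0.01). NTNG2 differed by 0.23 from PFOS (0.02 to 0.44), by 0.26 from PFDA (0.05 to 0.47) and by 0.09 from 8:2 FTS (−0.12 to 0.30). EGR1 differed by 0.50 from PFOS (0.19 to 0.82, adjusted p = 0.999), 0.18 from PFDA (−0.13 to 0.49) and 0.27 from 8:2 FTS (−0.04 to 0.59).

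The other compounds were measured against the same 3 controls, so their values are given beside those of PFDS only as levels. EGR1 averaged 12.6 ± 3.47 CPM with PFOS, 14.6 ± 0.59 with 8:2 FTS, 15.4 ± 1.73 with PFOA, 15.6 ± 1.72 with PFDA, 17.5 ± 1.53 with PFDS and 23.3 ± 2.97 with 8:2 FTOH (SD, n = 3 each), against 35.8 ± 8.82 in controls. PFDS is next to the highest in this order, and its difference from PFDA lies within an interval that includes 0. INHBA averaged 36.1 ± 9.84 CPM with PFDS and 43.3 to 51.8 CPM with the others, CDH20 4.99 ± 0.41 and 6.01 to 7.97, ARSJ 9.61 ± 1.67 and 12.1 to 14.1, and FGF1 40.8 ± 4.67 and 45.3 to 53.3. NTNG2 averaged 49.8 ± 2.65 CPM with PFDS and 36.6 to 47 CPM with the others.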

How the data were processed

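The tools named in the submitters' processing notes are FastQC, MultiQC, HISAT2, SAMtools, featureCounts and DESeq2, with the build hg38. The deposited counts are whole reads per gene from featureCounts 2.0.1, per the file headers, whose command sets neither strand nor read pairs, although the library kit is stranded. Genes that overlap on either strand may therefore share or lose reads: beside the overlaps given with the values, IDI1, SLC7A11, SLC2A1, SLIT1, VIP, CDH11 and LAMA4 share exon bases with a gene of lower level. The authors' normalized table was not used.

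Genes were filtered with filterByExpr and scaled by TMM in edgeR 4.0.16 (R 4.3.3). 1 quasi-likelihood model covered all 21 libraries, and p-values were adjusted over all genes by Benjamini-Hochberg at 0.05. SE is the log2 fold change divided by the root of its F statistic. DESeq2 1.42.0 was an alternative. Positions and overlaps came from the count table, and symbols from a gene name reference matched by gene ID. Gene types such as protein-coding came from GENCODE or, where missing there, RefSeq. Promoters came from RefSeq (GRCh38.p14). Tables and figures used Python 3.11.15, pandas 2.3.3 and matplotlib 3.10.9, and the fit was tested on simulated data.

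The comparison and the gene lists were chosen with earlier results of these data known. Named were all called genes, the 10 non-overlapping higher and 10 lower protein-coding genes of smallest p among the rest, genes called without control replicate 3, up to 4 members of each list by p, and members of the lists that hold a called gene. Other named genes (among them HMGCS1, SQLE, INSIG1, SREBF2, MSMO1, MAP1B, SHMT2, PHGDH, ATF4, DUSP6, DBH and TH, and those called only without PFDS replicate 3) were chosen after their values were seen. Alternatives were other scalings, filters, the DESeq2 test, a replicate block, the groups compared alone, leaving out libraries and, chosen after seeing the data, thinned counts, a depth term and leaving out control and PFDS replicate 3 together. Some members of the cholesterol list are counted but not reported singly here.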

Additional observations from a re-analysis of the deposited data

Results flagged for a closer look

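FOS is listed because its level differed between 2 compounds given at the same dose and time: the log2 difference of PFDS minus PFOS was 1.72 (SE 0.30, adjusted p = 0.0253, edgeR's quasi-likelihood test), the only call among 24879 genes. FOS averaged 7.5 ± 0.934 CPM in controls, 4.45 ± 1.15 CPM with PFDS and 1.38 ± 0.486 CPM with PFOS (SD, n = 3 each).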

How the results depend on the processing

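The count of 6 genes for PFDS against control depended on the settings. It was 13 with library size alone, 86 with no filter on low counts, 2 with only the 2 groups compared, 26 without the 2 libraries absent from the authors' normalized table, 28 with DESeq2 and 137 without control replicate 3 and PFDS replicate 3 together; leaving out single libraries gave 1 to 100. The cause was not tested. For PFDS against PFOS the count of 1 became 0 with library size alone, 17 with no filter, 6 with only the 2 groups and 2 without the 2 absent libraries, and 0 to 3 with single libraries left out. For PFDS against PFDA the count of 0 became 10 with no filter and 0 to 1 with single libraries left out; for PFDS against 8:2 FTS it became 1 with no filter. Whether the replicate numbers mark pairs cannot be told from 3 libraries per group. The correlations of same-numbered PFDS and control libraries were 0.124, −0.0478 and 0.0587, and those of unlike numbers ran from −0.189 to 0.149. Same-numbered correlations were 0.0516, 0.0448 and 0.241 for PFDS and PFDA. They were 0.0723, −0.0418 and 0.0128 with PFOS and −0.0809, 0.137 and 0.0321 with 8:2 FTS. With a replicate block over all groups the counts were 6, 1, 0 and 0; with the block in only the groups compared they were 54, 24, 2 and 0. EGR1 passed in each of the 18 alternatives. Over the named genes and alternatives, 5510 values kept their side of the threshold, 27 lost a call and 200 gained one, and no called value changed sign. Genes that were not called could change sign. Of the 26 immediate early genes, 10 were above 0 in the main fit and 12 with library size alone. Of the list medians, 460 moved by less than the spread between libraries and 11 by more, among them that of the ATF4 list without control replicate 3. FGF1 missed the threshold with the depth term (adjusted p = 0.0672) and ARSJ with thinned counts (0.0885), and with only the 2 groups EGR1 alone of the 6 passed. PFDS replicates 1 and 2 had fewer than 20000000 counts and the controls more, which limits precision for low genes.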

Other observations

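Beside the genes called, several others came near the threshold. FLRT1, a membrane adhesion protein that binds FGF receptors, was at 17.5, 21.03 and 21.4 CPM in controls and 31.6, 27.6 and 28.4 CPM with PFDS (log2 fold change 0.55, SE 0.12, adjusted p = 0.0797). AK4, a mitochondrial adenylate kinase, was at 36.9, 40.5 and 45.5 CPM and at 56.9, 51.2 and 52.5 CPM (0.38, adjusted p = 0.12). TPRKB, a subunit of the complex that modifies transfer RNA, was at 35.8, 39.2 and 38.6 CPM and at 27.95, 25.3 and 28.97 CPM (−0.46, adjusted p = 0.0797). In all 3 the groups did not overlap, and PFDS replicate 3 was with replicates 1 and 2.

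Of the 100 genes that passed without PFDS replicate 3, 82 were lower. SGK1, a kinase induced by serum and glucocorticoid, was at 54.8, 45.4 and 41.02 CPM in controls and 20.3, 32.5 and 45.1 CPM with PFDS, with log2 fold changes of −0.83 without replicate 3 (adjusted p = 9.19e-04) and −0.50 with it (0.756). HEY1, a Notch target, was at 46.6, 46 and 37.6 CPM and at 25.8, 30.39 and 41.03 CPM (−0.63 and −0.40). TMEM97, a sterol-regulated membrane protein, was at 149, 137 and 129 CPM and at 93.1, 101 and 132 CPM (−0.50 and −0.33). RET, the GDNF family receptor kinase, was at 558, 497 and 477 CPM and at 283, 441 and 550.0 CPM (−0.50 and −0.26). In each of these PFDS replicate 3 lay within the control range.

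Without control replicate 3, 23 genes passed, 14 of them higher. TXNIP, a thioredoxin inhibitor induced by glucose, was at 81.7, 109 and 141 CPM in controls and 166, 139 and 153 CPM with PFDS, with a log2 fold change of 0.68 without that control (adjusted p = 0.00122) and 0.46 with it (0.524). SLITRK6, a synaptic adhesion protein, was at 55.3, 76.0 and 98.5 CPM and at 129, 96.1 and 113 CPM (0.78 and 0.56). In both genes 1 PFDS library was below control replicate 3.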
